A study of Mus musculus with 24 samples.

Results

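Genes of the insulin-like growth factor (IGF) axis were followed across the 12 liver RNA libraries of a mouse study of Smyd3, a SET and MYND domain lysine methyltransferase: the ligand gene Igf1, the receptor genes Ghr, Igf1r and Igf2r, the carrier subunit gene Igfals, and the binding protein genes Igfbp1, Igfbp2, Igfbp3, Igfbp4 and Igfbp5. These 10 genes were chosen by name, and all were found among the 37583 genes of the deposited table and had enough signal to be tested with 16471 genes. The libraries form 4 groups of 3 mice labelled C57BL6/CBA, all aged 8.5 months. DEN_KO mice carried the Smyd3 gene trap and had received 25 mg/kg of diethylnitrosamine (DEN), a liver carcinogen used to model hepatocellular carcinoma, by 1 intraperitoneal injection. DEN_WT mice were wild type and had the same injection. KO mice carried the trap without DEN, and WT mice were wild type without DEN. The trap lies in intron 5 of Smyd3 and acts in all tissues, so a knockout liver here also sits in a knockout animal. The labels do not say whether tumour and surrounding tissue were separated, and they give neither the sex of the mice nor whether food was withheld before death. Regions enriched for H3K4me3, the trimethyl mark of histone H3 found at active start sites, came from DEN_KO and DEN_WT livers, and regions bound by Smyd3 from DEN_WT livers, with 2 replicates behind each list.

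Growth hormone from the pituitary binds the receptor encoded by Ghr on hepatocytes and acts through the kinase JAK2 and the factor STAT5B, which drive Igf1 and Igfals. The liver releases most of the IGF1 in blood, where it travels mainly in a complex with IGFBP3 and the acid-labile subunit, the product of Igfals. IGFBP1 is the binding protein whose liver gene is held down by insulin and raised by fasting and stress, and it can withhold IGF1 from its receptor.

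The deposited values are normalized read counts, rounded to whole numbers, and sum to between 22320634 and 28973396 per library. The 10 highest genes held 22.37% to 33.42% of these sums in DEN_WT libraries and 15.13% to 20.59% in the other 9. The targeted gene Smyd3 averaged 7.67 ± 4.51 in DEN_KO livers and 67.3 ± 9.07 in DEN_WT livers, and 22.7 ± 6.03 in KO livers and 75.7 ± 15.3 in WT livers (mean ± SD, n = 3 mice each, as for all means below). All 11 hepatocyte markers in the table were above 0 in every library. Differences below are log2 fold changes ± SE on log2(value + 1) from limma, with p-values adjusted by the Benjamini-Hochberg method over all tested genes and called below 0.05. Because these are bulk livers, fewer cells of a type and less RNA per cell cannot be told apart.

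DEN-treated wild type livers had far more Igfbp1 RNA, more Igfbp3 RNA, and less RNA of Igf1, Ghr and Igfals than untreated wild type livers. Of the 10 genes 2 rose, 3 fell and 5 did not pass the test, where 29.6% of all tested genes were called (16.1% higher and 13.5% lower). For 43.3% of all tested genes the values of these groups did not overlap. The median difference of the 10 genes was -0.12, and that of all tested genes -0.02. In DEN_KO livers against DEN_WT livers, Igfbp1 and Igfbp3 were lower and Ghr and Igfals higher, 4 of 10 genes where 33.9% of all tested genes were called (16.4% higher and 17.4% lower) and 49.9% did not overlap. The median there was 0.36 for the 10 genes and -0.06 for all. These comparisons share the DEN_WT libraries, so opposite signs in them are not independent of each other. Igf1 did not pass the test in the second of them.

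**Figure D1:**
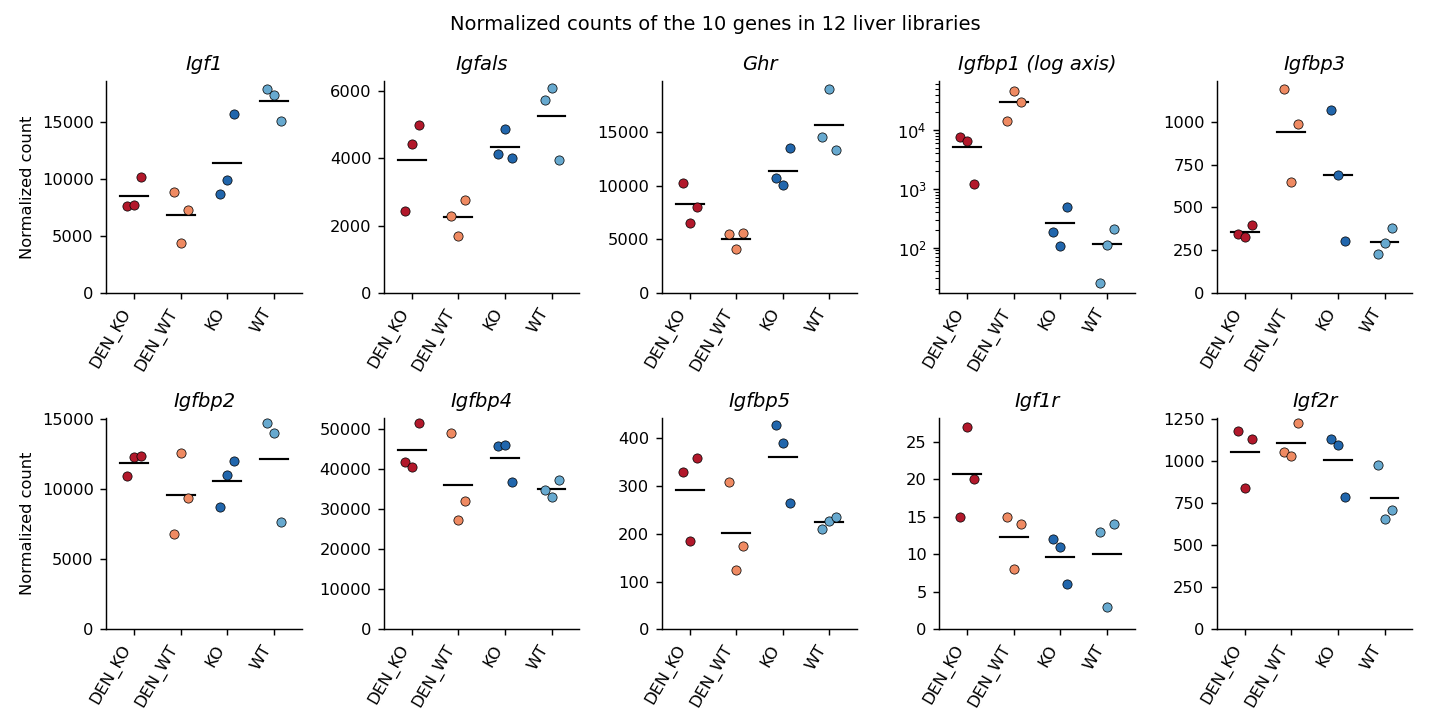
Normalized counts (y axis, linear except for Igfbp1, which has a log axis) of the 10 genes in the libraries of DEN_KO, DEN_WT, KO and WT livers (x axis). Each point is 1 mouse and each black bar the mean of 3. For Igfbp1 the DEN_WT points stand at 14331 to 46712 and the WT points at 25 to 208.

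The ligand gene Igf1, on chromosome 10 (mm9, 87321010 to 87399792, plus strand), encodes the growth factor itself. It read 8834, 4353 and 7265 in DEN_WT livers, against 17893, 17375 and 15067 in WT livers. Every DEN_WT liver lay below every WT liver, and the fall was -1.36 ± 0.27 (adjusted p = 0.0023), 2.56-fold lower. DEN_KO livers read 7613, 7698 and 10167, and KO livers 8688, 9865 and 15684. The DEN_KO values overlapped those of DEN_WT and of KO livers, and KO replicate 3 stood well above the other KO livers. The group means rank from DEN_WT (6817 ± 2274) through DEN_KO (8493 ± 1451) and KO (11412 ± 3746) to WT (16778 ± 1505). No neighbours in that order differed past the test: DEN_KO against DEN_WT was 0.36 ± 0.27 (adjusted p = 0.32), DEN_KO against KO -0.39 ± 0.27 (adjusted p = 0.36) and KO against WT -0.60 ± 0.27 (adjusted p = 0.32). The 95% interval of the difference between DEN_KO and DEN_WT ran from -0.22 to 0.95, and quantile normalization gave -0.02.

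Ghr, on chromosome 15 (mm9, 3267760 to 3533492, minus strand), encodes the growth hormone receptor, which is most abundant in liver. Its values were 5499, 4068 and 5618 in DEN_WT livers, against 14518, 19017 and 13345 in WT livers. The groups were far apart, with a fall of -1.62 ± 0.22 (adjusted p = 0.00015), 3.08-fold lower. In DEN_KO livers Ghr read 10217, 6543 and 8047, all above the DEN_WT livers, and KO livers read 10696, 10052 and 13469. DEN_KO livers averaged 8269 ± 1847 and DEN_WT livers 5062 ± 863, a rise of 0.70 ± 0.22 (adjusted p = 0.025, 1.62-fold). That call was lost under quantile normalization (0.38, adjusted p = 0.16) and cyclic loess (0.36, adjusted p = 0.18), and when DEN_KO replicate 1, DEN_KO replicate 3 or DEN_WT replicate 2 was left out (0.53, 0.71 and 0.55; adjusted p = 0.1, 0.063 and 0.1). DEN_KO against KO (-0.48 ± 0.22, adjusted p = 0.16) and KO against WT (-0.45 ± 0.22, adjusted p = 0.35) did not pass. The means of Ghr rank as those of Igf1 do, DEN_WT lowest and WT, at 15627 ± 2994, highest.

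Igfals, on chromosome 17 (mm9, 25014600 to 25018955, plus strand), encodes the acid-labile subunit that holds IGF1 and IGFBP3 in blood. It read 2281, 1676 and 2771 in DEN_WT livers, against 5749, 6087 and 3959 in WT livers. The groups did not overlap, and the fall was -1.24 ± 0.27 (adjusted p = 0.0038), 2.36-fold lower. DEN_KO livers read 2436, 4441 and 5004, and KO livers 4132, 4867 and 4006. DEN_KO replicate 1 lay among the DEN_WT livers and the other DEN_KO livers among the untreated ones. The means were 3960 ± 1350 in DEN_KO livers and 2243 ± 549 in DEN_WT livers, a rise of 0.78 ± 0.27 (adjusted p = 0.038) that 11 of the 21 other settings lost. Among those, cyclic loess gave 0.57 (adjusted p = 0.11), and leaving out DEN_KO replicate 3 gave 0.58 (adjusted p = 0.16), DEN_WT replicate 2 gave 0.59 (adjusted p = 0.15) and DEN_KO replicate 2 gave 0.67 (adjusted p = 0.12). DEN_KO against KO was -0.19 ± 0.27 (adjusted p = 0.67). RefSeq gives Igfals 3 promoter windows in build GRCm38.p6, each from 250 bases before a start to 50 after it, and the pair below each hold 1 match, in capitals, to TTCNNNGAA, the palindrome that STAT5 recognises. The match lies 236 to 228 bases before the start in one and 58 to 50 before it in the other. Searched on both strands, 8.3% of all 32851 RefSeq windows hold this motif, and the Igf1 and Ghr windows do not.
Igfals window at chr17:24877594-24877893 (plus strand): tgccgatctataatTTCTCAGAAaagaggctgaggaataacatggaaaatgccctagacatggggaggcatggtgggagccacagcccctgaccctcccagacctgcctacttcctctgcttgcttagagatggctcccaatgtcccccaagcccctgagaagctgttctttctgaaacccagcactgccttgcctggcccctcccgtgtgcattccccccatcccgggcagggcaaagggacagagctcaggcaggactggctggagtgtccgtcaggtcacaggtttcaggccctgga
Igfals window at chr17:24877981-24878280 (plus strand): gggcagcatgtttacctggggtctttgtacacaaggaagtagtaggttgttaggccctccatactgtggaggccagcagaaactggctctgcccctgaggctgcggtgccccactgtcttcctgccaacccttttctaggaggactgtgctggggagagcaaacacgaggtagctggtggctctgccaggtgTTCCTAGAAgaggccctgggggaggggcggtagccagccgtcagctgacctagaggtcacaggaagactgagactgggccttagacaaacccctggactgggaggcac

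Igf1r and Igf2r encode the receptors on the receiving side. Igf1r, on chromosome 7 (mm9, 75097713 to 75371484, plus strand), encodes the IGF1 receptor kinase, which mature hepatocytes express little. It stayed between 3 and 27 in all 12 libraries, at 20.7 ± 6.03 in DEN_KO livers and 12.3 ± 3.79 in DEN_WT livers (0.71 ± 0.54, adjusted p = 0.33). At such values the interval of that difference, from -0.45 to 1.86, is wide, and the difference between DEN_WT and WT livers changed sign without WT replicate 2 (0.45 with it, -0.16 without it). Igf2r, on chromosome 17 (mm9, 12875272 to 12962530, minus strand), encodes the mannose 6-phosphate receptor that clears IGF2. It averaged 1104 ± 108 in DEN_WT livers and 781.7 ± 170 in WT livers, and although the groups did not overlap, the difference of 0.51 ± 0.20 was short of the threshold (adjusted p = 0.069). It passed with quantile normalization (0.59, adjusted p = 0.031), with cyclic loess (0.62, adjusted p = 0.029), without WT replicate 1 (0.68, adjusted p = 0.025) and without KO replicate 3 (0.51, adjusted p = 0.045). The antisense RNA Airn overlaps Igf2r, and whether counting used strand is not known, so their reads may not be separated.

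Igfbp1 moved by far the most of the 10 genes between DEN_WT and WT livers. It lies on chromosome 11 (mm9, 7097785 to 7102549, plus strand) and encodes the insulin-suppressed binding protein. The values were 14331, 46712 and 29834 in DEN_WT livers, against 25, 111 and 208 in WT livers. The lowest DEN_WT liver was well above the highest WT liver, and the rise was 8.32 ± 0.81 (adjusted p = 1.3e-05), a fold of 320.2 on that scale with a 95% interval of 6.57 to 10.07 in log2. DEN_KO livers read 7564, 6499 and 1211, and KO livers 182, 105 and 487. DEN_KO livers thus lay between the DEN_WT livers and both untreated groups, and DEN_KO replicate 3 was the lowest of them. The fall in DEN_KO livers against DEN_WT livers was -2.80 ± 0.81 (adjusted p = 0.018), 6.95-fold lower, and the call was lost without DEN_KO replicate 3 (-1.95, adjusted p = 0.087) or DEN_WT replicate 2 (-2.40, adjusted p = 0.072). DEN_KO livers were higher than KO livers by 4.21 ± 0.81 (adjusted p = 0.0058), 18.5-fold. Igfbp1 was the single gene of the 10 called in that comparison, where 14.9% of all tested genes were called (8.91% higher and 6.02% lower) and 35.1% did not overlap.

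The Igfbp1 promoter window, shown because insulin acts on this promoter through a known element, has 1 match to CAAAACA, the core letters of the FOXO-bound insulin response sequence. The match, in capitals, lies 108 to 102 bases before the RefSeq start (GRCm38.p6). On both strands together 6.28% of all windows hold these letters, and none of the other 13 windows of the 10 genes do.
Igfbp1 window at chr11:7197537-7197836 (plus strand): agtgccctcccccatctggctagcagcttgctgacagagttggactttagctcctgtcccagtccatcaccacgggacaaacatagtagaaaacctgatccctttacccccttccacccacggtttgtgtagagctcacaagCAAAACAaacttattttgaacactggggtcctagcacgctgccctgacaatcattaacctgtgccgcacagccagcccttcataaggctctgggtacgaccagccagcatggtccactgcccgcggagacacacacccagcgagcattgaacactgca

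Igfbp3, the neighbour of Igfbp1 on chromosome 11 (mm9, 7106089 to 7113926, minus strand), encodes the main IGF carrier of blood, and in rat liver its RNA is made largely by non-parenchymal cells. It read 1193, 651 and 988 in DEN_WT livers, against 226, 292 and 378 in WT livers, which did not overlap. The rise was 1.64 ± 0.37 (adjusted p = 0.0046), 3.13-fold. DEN_KO livers read 346, 324 and 397, all below the DEN_WT livers and near the WT livers, and the fall against DEN_WT livers was -1.37 ± 0.37 (adjusted p = 0.012), 2.58-fold lower. This call held in every alternative tried, with log2 values from -1.61 to -1.18. KO livers were uneven, at 1072, 690 and 302. KO against WT was 1.05 ± 0.37 (adjusted p = 0.2) and DEN_KO against KO -0.77 ± 0.37 (adjusted p = 0.18), and without KO replicate 3, the lowest KO liver, these passed at 1.55 (adjusted p = 0.017) and -1.28 (adjusted p = 0.014). Its promoter window contrasts with that of its neighbour: no match to any of the 3 motifs searched (TTCNNNGAA, CAAAACA and TATAAA, on both strands), 71.7% G and C, and 37 CG pairs, in capitals below. The Igfbp1 window has 54.3% G and C and 8 CG pairs, and the medians of all windows are 52.7% and 7.
Igfbp3 window at chr11:7213874-7214173 (minus strand): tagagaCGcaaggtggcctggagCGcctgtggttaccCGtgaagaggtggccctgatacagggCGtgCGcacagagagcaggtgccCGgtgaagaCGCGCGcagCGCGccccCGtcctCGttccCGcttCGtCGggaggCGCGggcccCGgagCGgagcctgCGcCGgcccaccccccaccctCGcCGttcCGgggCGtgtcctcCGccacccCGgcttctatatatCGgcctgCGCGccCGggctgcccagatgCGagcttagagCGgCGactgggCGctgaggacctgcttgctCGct

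The other binding protein genes did not pass the test in any of the 5 comparisons. Igfbp2, on chromosome 1 (mm9, 72871077 to 72899048, plus strand), which encodes a carrier made by hepatocytes and abundant in fetal life, ran from 6774 to 14707 over all 12 livers. It averaged 11873 ± 783 in DEN_KO livers and 9578 ± 2898 in DEN_WT livers (0.35 ± 0.27, adjusted p = 0.34), and its difference between DEN_WT and WT livers was -0.33 ± 0.27 (adjusted p = 0.39). Neither sign held, with -0.09 and 0.22 under quantile normalization and -0.01 and 0.15 under cyclic loess. Igfbp4, on chromosome 11 (mm9, 98902558 to 98915706, plus strand), encodes a binding protein that is cut by the protease PAPP-A and mostly restrains IGF action. It ran from 27250 to 51522, with means of 36011 ± 11373 in DEN_WT livers and 34961 ± 2138 in WT livers. The log2 interval of that difference ran from -0.55 to 0.55, and quantile normalization gave 0.67, outside that interval and short of the threshold. Between DEN_KO and DEN_WT livers it was 0.34 ± 0.25 (adjusted p = 0.31), with the sign turned by quantile normalization (-0.37) and cyclic loess (-0.18), so no direction is given for Igfbp4. Igfbp4 has 1 match to TATAAA 28 to 23 bases before its RefSeq start, letters that 13.6% of all windows hold on either strand, and 1 of the 2 Ghr windows has them on the other strand, 188 to 183 bases before the start. Igfbp5, on chromosome 1 (mm9, 72904506 to 72921458, minus strand), encodes the most conserved of the binding proteins. It averaged 290.3 ± 93.2 in DEN_KO livers and 202.3 ± 94 in DEN_WT livers (0.56 ± 0.32, adjusted p = 0.19), and 0.91 without DEN_WT replicate 1 (adjusted p = 0.036). KO livers, at 265 to 427, lay above WT livers, at 209 to 235, without passing the test (0.66 ± 0.32, adjusted p = 0.35), and 17.4% of all tested genes did not overlap between those groups.

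Without DEN, none of the 10 genes was called between KO and WT livers, where limma called 1.16% of all tested genes (0.546% higher and 0.613% lower). The targeted gene Smyd3 was itself short of the limma threshold there (-1.71, adjusted p = 0.065). A missing call in this comparison therefore does not show that a gene was unchanged. Igf1 and Igfbp3 had an unadjusted limma p below 0.05, as had 15.1% of all tested genes. Igfbp1 was 258 ± 202 in KO livers and 114.7 ± 91.6 in WT livers (1.32 ± 0.81, adjusted p = 0.47, 95% interval -0.43 to 3.07), an interval that includes 0. Whether the DEN effect differed between genotypes was tested as an interaction, the effect in KO minus the effect in WT, which called 16.6% of all tested genes (8.73% higher and 7.83% lower). It called Igfbp1 (-4.12 ± 1.15, adjusted p = 0.028), Igfbp3 (-2.42 ± 0.52, adjusted p = 0.0093) and Ghr (1.15 ± 0.31, adjusted p = 0.024). The call of Igfbp3 held in every alternative. That of Igfbp1 was lost without the trend (adjusted p = 0.056) and with 6 of the 12 libraries left out in turn, and that of Ghr with quantile normalization (0.73, adjusted p = 0.089), cyclic loess (0.76, adjusted p = 0.08) and 6 of 12 libraries. Igf1 (0.96 ± 0.39, adjusted p = 0.1) and Igfals (1.04 ± 0.38, adjusted p = 0.076) did not pass, although Igf1 fell with DEN past the test in wild type livers and not in knockout livers. Igf1 passed without KO replicate 3 (1.22, adjusted p = 0.035) and Igfals without DEN_KO replicate 1 (1.36, adjusted p = 0.019).

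**Figure D2:**
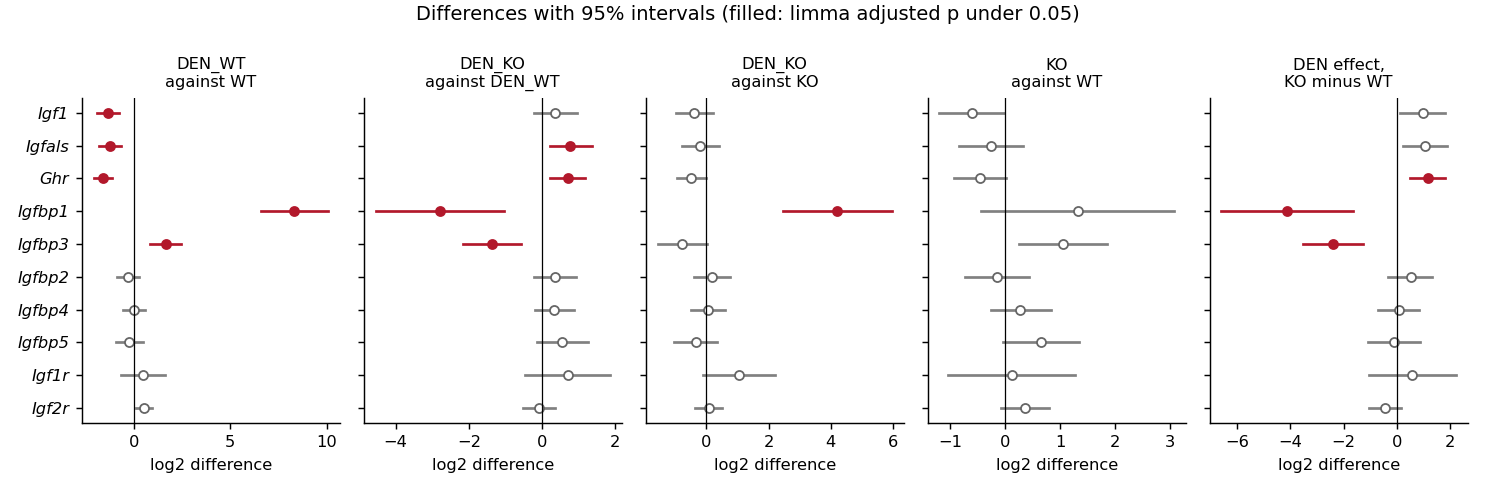
Log2 differences (x axis, on log2(value + 1)) of the 10 genes (rows) in the 5 comparisons (panels), with 95% intervals as bars. Filled red points passed the limma test. Igfbp1 has an estimate of 8.32 between DEN_WT and WT and -2.80 between DEN_KO and DEN_WT, while Igfbp2, Igfbp4 and Igfbp5 have no filled point.

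The other genes of growth hormone signalling were read from a list of 16. That list also holds Lepr and Prlr, the receptors of leptin and prolactin, so its counts are not of growth hormone signalling alone. Over all tested genes, limma called 29.6% in DEN_WT against WT livers and 33.9% in DEN_KO against DEN_WT livers. It called 1.16% in KO against WT and 14.9% in DEN_KO against KO, shares that stand beside every list count below. Between DEN_WT and WT livers 2 rose and 1 fell (median 0.31), namely Socs3, a cytokine-induced inhibitor, by 1.46 ± 0.41 (adjusted p = 0.015, lost without DEN_WT replicate 1 or WT replicate 2) and Lepr, the leptin receptor, by 3.40 ± 0.35 (adjusted p = 2e-05). Onecut1, a liver transcription factor that growth hormone induces, fell by -2.38 ± 0.67 (adjusted p = 0.017), a call lost without DEN_WT replicate 3 or WT replicate 1. Between DEN_KO and DEN_WT livers 1 rose and 4 fell (median 0.18). Cish, a STAT5 target that shuts off the receptor signal, read 154, 161 and 178 in DEN_KO livers, against 1736, 2882 and 988 in DEN_WT livers. Those ranges were well apart, and Cish fell by -3.37 ± 0.88 (adjusted p = 0.01). Socs2, another STAT5-induced inhibitor, fell by -1.85 ± 0.56 (adjusted p = 0.021), lost without DEN_KO replicate 1 or DEN_WT replicate 2. Lepr fell by -2.02 ± 0.35 (adjusted p = 0.00099) and Ptpn1, a phosphatase of JAK2, by -0.60 ± 0.15 (adjusted p = 0.0087). Sh2b1, an adaptor of JAK2, was the one that rose (0.49 ± 0.18, adjusted p = 0.049), a call lost when any 1 of 10 libraries was left out and under 4 other settings. Without DEN, Cish was uneven in KO livers, with 89, 202 and 2789, against 912, 554 and 1269 in WT livers. None of the 16 was called in KO against WT, and DEN_KO against KO had Socs1 and Ptpn6 higher, calls lost when any 1 of 3 and any 1 of 4 libraries was left out, and 0 lower. Socs2, although uncalled in limma, differed by -1.80 in KO against WT livers (adjusted p = 0.15). Its interaction was -0.06 (adjusted p = 0.97).

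Sex-biased liver genes depend on the pattern of growth hormone release, and they were read as 15 male-biased and 15 female-biased genes. Over all tested genes, 16.1% were higher and 13.5% lower in DEN_WT against WT livers. In DEN_KO against DEN_WT livers 16.4% were higher and 17.4% lower. Male-biased genes had 12 of 15 lower in DEN_WT than in WT livers and 0 higher (median -1.95). Hsd3b5, a steroid dehydrogenase, fell by -3.16 ± 0.40 (adjusted p = 0.00011), Cyp4a12a, a fatty acid hydroxylase, by -2.93 ± 0.53 (adjusted p = 0.0011), Cyp7b1, an oxysterol hydroxylase, by -2.69 ± 0.52 (adjusted p = 0.0017) and Susd4, a complement regulator, by -2.48 ± 0.41 (adjusted p = 0.00059). In DEN_KO against DEN_WT livers 10 of the 15 were higher and 1 lower (median 1.32), with Susd4 at 2.26 ± 0.41 (adjusted p = 0.0012) and Cyp4a12a at 1.78 ± 0.53 (adjusted p = 0.019). The one lower was Serpina12, an adipokine gene, at -1.83 ± 0.64 (adjusted p = 0.041), lost when any 1 of 7 libraries was left out, with no filter and without the trend. The call of Cyp4a12a in DEN_KO was lost without DEN_KO replicate 3 and with the 2 groups alone. KO against WT called none of the 15, and DEN_KO against KO 3, Hsd3b5, Elovl3 and Slco1a1, all lower, each lost when any 1 of several libraries was left out (5, 8 and 4 of the 12). Of the female-biased genes 14 were tested, and 8 rose and 1 fell in DEN_WT against WT livers (median 3.19), the one being Cyp3a44. Cyp2a4, a steroid hydroxylase, rose by 7.26 ± 0.48 (adjusted p = 8.6e-07), and Sult2a1, a steroid sulfotransferase, read 12, 51 and 57 in DEN_WT livers and is listed at 0 in all 3 WT livers, so no fold is given. Cyp2b9, a cytochrome P450, rose by 4.81 ± 1.14 (adjusted p = 0.0063), and Abcd2, a peroxisomal transporter, by 4.71 ± 0.46 (adjusted p = 1.3e-05). In DEN_KO against DEN_WT livers 2 were higher, Acot3 and Cyp3a44, and 2 lower (median -0.74, with Cyp3a44 lost without DEN_KO replicate 1 or DEN_WT replicate 3), Abcd2 by -3.36 ± 0.46 (adjusted p = 0.00024) and Cyp2a4 by -2.26 ± 0.48 (adjusted p = 0.0032). KO against WT called Cyp17a1, a steroid hydroxylase, higher (5.55 ± 1.05, adjusted p = 0.024) and Abcd2 lower (-2.18 ± 0.46, adjusted p = 0.039). The first was lost when any 1 of 4 libraries was left out and without the trend, and the second when any 1 of 6 was and under 5 other settings. DEN_KO against KO had Cyp2a4, Sult3a1 and Abcd2 higher, with Sult3a1 lost when any 1 of 3 libraries was left out and under 3 other settings. The Cyp2a, Cyp2b, Cyp4a and Mup genes have near-identical copies, so their single-gene values are uncertain, and these lists were chosen with earlier results of these libraries known.

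Inside the receiving cell, 20 genes of IGF and insulin signalling had 4 higher and 3 lower in DEN_WT against WT livers (median 0.04), and 0 higher and 4 lower in DEN_KO against DEN_WT livers (median -0.04). Of all tested genes 29.6% and 33.9% were called in these comparisons, so the counts are not read as a trait of this list. Insr, the insulin receptor, read 1642, 1487 and 1861 in DEN_KO livers, against 3132, 3299 and 2673 in DEN_WT livers. All 3 DEN_KO livers lay below, and the fall was -0.87 ± 0.14 (adjusted p = 0.00069). It had risen by 0.49 ± 0.14 in DEN_WT against WT livers (adjusted p = 0.02), a call lost without DEN_WT replicate 1 or 2. Grb10, an adaptor that inhibits the insulin and IGF1 receptors, fell by -1.89 ± 0.47 (adjusted p = 0.0078) in DEN_KO against DEN_WT livers. Irs2, an insulin receptor substrate, and Eif4ebp1, a repressor of translation, rose in DEN_WT against WT livers by 0.96 ± 0.29 (adjusted p = 0.023) and 0.78 ± 0.20 (adjusted p = 0.011). The call of Irs2 was lost without DEN_WT replicate 3 or WT replicate 1 and with the 2 groups alone. Shc1, an adaptor of both receptors, rose by 0.62 ± 0.19 in DEN_WT against WT livers (adjusted p = 0.028, lost when any 1 of 4 libraries was left out) and differed by -0.78 ± 0.19 in DEN_KO against DEN_WT livers (adjusted p = 0.0074), where Pdpk1, the kinase that activates AKT, was the fourth to fall (-0.55 ± 0.14, adjusted p = 0.0088). Grb14, Pik3r1 and Rps6kb1 were the 3 that fell in DEN_WT against WT livers, by -0.60, -0.76 and -0.61. The call of Grb14 was lost when any 1 of 4 libraries was left out and with cyclic loess, and that of Rps6kb1 without DEN_WT replicate 1. KO against WT called none of the 20, and DEN_KO against KO had Irs2 higher and Insr and Pdpk1 lower. Those 3 calls were lost when any 1 of 6, 4 and 5 libraries was left out and under 2, 4 and 4 other settings.

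Genes that insulin or fasting regulate in liver, the setting in which Igfbp1 is usually discussed, had 1 of 13 higher and 3 lower in DEN_WT against WT livers (median -0.00), and 5 higher and 1 lower in DEN_KO against DEN_WT livers (median 0.56). The shares of all tested genes called in these comparisons were 29.6% and 33.9%. Pck1, the fasting-induced enzyme of gluconeogenesis, read 76389, 37959 and 69991 in DEN_KO livers, against 28132, 7106 and 15485 in DEN_WT livers. The groups did not overlap, and Pck1 rose by 2.01 ± 0.47 (adjusted p = 0.0054), G6pc, the glucose-releasing phosphatase, by 1.48 ± 0.44 (adjusted p = 0.019) and Angptl4, a lipase inhibitor, by 2.76 ± 0.57 (adjusted p = 0.0027). The call of G6pc was lost without DEN_KO replicate 1, DEN_WT replicate 1 or DEN_WT replicate 2. Tat, a tyrosine-degrading enzyme, and Klf15, a fasting-induced factor, were the others that rose, by 1.13 ± 0.33 (adjusted p = 0.017) and 0.90 ± 0.30 (adjusted p = 0.031). Both calls were lost with quantile normalization, with cyclic loess and with the 2 groups alone, and without DEN_KO replicate 1. These 5 genes thus had the opposite sign to Igfbp1 in that comparison. Trib3, a stress-induced pseudokinase, had the signs of Igfbp1, with a rise of 3.30 ± 0.35 (adjusted p = 2.4e-05) in DEN_WT against WT livers and a fall of -2.14 ± 0.35 (adjusted p = 0.00065) in DEN_KO against DEN_WT livers. In DEN_WT against WT livers Angptl4 fell by -1.75 ± 0.57 (adjusted p = 0.034), a call lost when any 1 of 4 libraries was left out, with cyclic loess, without the trend and with the 2 groups alone, and Tdo2, a tryptophan-degrading enzyme, fell by -0.80 ± 0.25 (adjusted p = 0.03), lost when any 1 of 5 libraries was left out, with no filter and with both other scalings. The comparisons KO against WT and DEN_KO against KO called none of the 13 in limma. Short of the threshold, Pck1 (1.23, adjusted p = 0.24) and Tat (0.75, adjusted p = 0.3) were also higher in KO than in WT livers. So were Klf15 (0.52, adjusted p = 0.43), Angptl4 (0.59, adjusted p = 0.65) and G6pc (0.18, adjusted p = 0.87). In KO against WT these 5 genes thus had the sign of Igfbp1 (1.32, adjusted p = 0.47). Values of Pck1, Tat and Klf15 did not overlap there, as for 17.4% of all tested genes.

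Igf2, the fetal ligand that IGF2R clears, was among 18 further IGF genes, of which 14 were tested. It read 33, 1974 and 37 in DEN_KO livers, against 255, 64 and 89 in DEN_WT livers, and 31, 35 and 50 in KO livers, against 19, 14 and 12 in WT livers. DEN_KO replicate 2 stood apart, and the difference between DEN_KO and DEN_WT livers was 0.26 ± 1.13 (adjusted p = 0.88) with it and -1.67 (adjusted p = 0.026) without it. DEN_WT against WT was 2.86 ± 1.13 (adjusted p = 0.073), and at the same 2.86 it passed without DEN_KO replicate 2 (adjusted p = 0.00059) and with the 2 groups alone (adjusted p = 0.0036), which leave that library out of the spread. In the 14 genes 4 rose and 0 fell in DEN_WT against WT livers (median 0.39), and 1 was higher and 4 lower in DEN_KO against DEN_WT livers (median 0.08). These counts are near the shares of all tested genes called, 29.6% and 33.9%. Igf2bp3, a fetal RNA-binding protein, rose by 3.23 ± 0.77 (adjusted p = 0.0067) in DEN_WT livers and read 4, 3 and 0 in DEN_KO livers, against 83, 38 and 17 in DEN_WT livers (-3.84 ± 0.77, adjusted p = 0.0023). Htra1, a protease that cuts IGF binding proteins, rose by 1.32 ± 0.38 (adjusted p = 0.019) in DEN_WT livers, lost without DEN_WT replicate 3, WT replicate 1 or WT replicate 2 and with quantile normalization, and fell by -2.21 ± 0.38 (adjusted p = 0.00091) in DEN_KO against DEN_WT livers. Stc1, a stanniocalcin that inhibits PAPP-A, fell there by -2.32 ± 0.54 (adjusted p = 0.0053), and Igfbp6, a carrier that prefers IGF2, rose by 1.96 ± 0.60 (adjusted p = 0.024) in DEN_WT against WT livers, a call lost without DEN_WT replicate 2, WT replicate 1 or WT replicate 2 and with quantile normalization. Ctsd, a lysosomal protease, was the other that rose there (0.58 ± 0.20, adjusted p = 0.045), lost when any 1 of 8 libraries was left out. M6pr, the smaller mannose 6-phosphate receptor, fell by -0.95 ± 0.15 (adjusted p = 0.00062) and Ide, the insulin-degrading enzyme, rose by 1.04 ± 0.26 (adjusted p = 0.0089) in DEN_KO against DEN_WT livers. KO against WT called none of the 14, and DEN_KO against KO had Ctsb higher and Igf2bp1, Stc1 and M6pr lower, with Ctsb and Igf2bp1 lost when any 1 of 8 and any 1 of 7 libraries was left out.

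**Figure D3:**
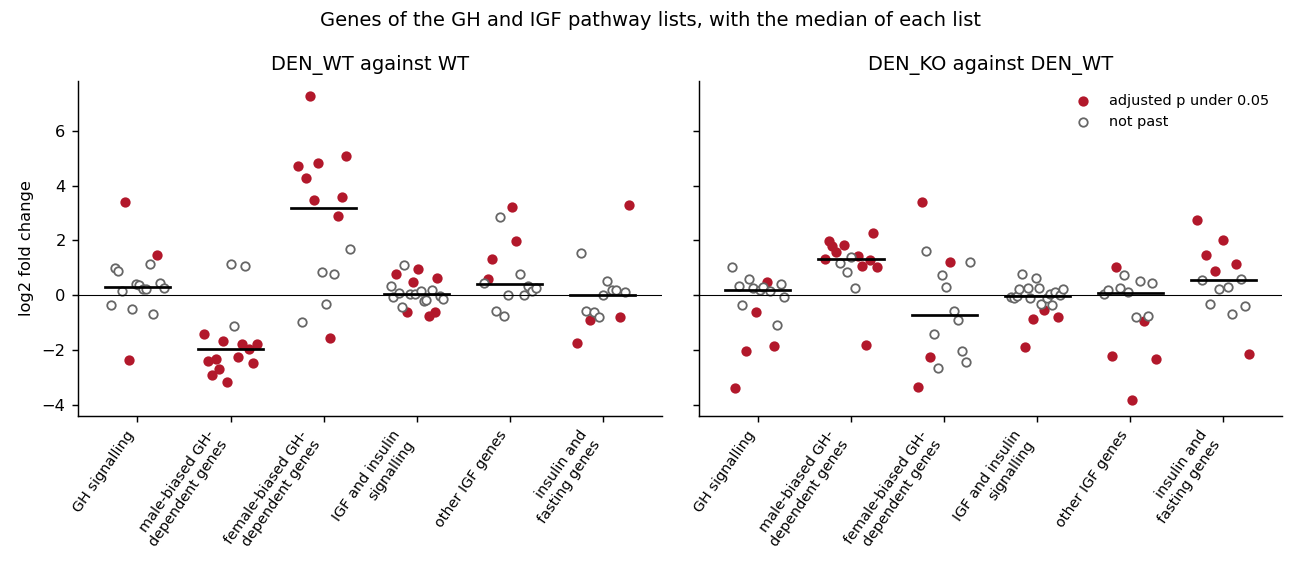
Log2 fold change (y axis, on log2(value + 1)) of each tested gene of the 6 pathway lists (x axis) in DEN_WT against WT livers (left) and DEN_KO against DEN_WT livers (right). Filled red points passed the limma test and black bars are list medians, which for male-biased genes stand at -1.95 on the left and 1.32 on the right.

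Markers of the cell types in the samples moved with some of these results, and their part in them was not tested. Their counts stand beside 29.6% of all tested genes called in DEN_WT against WT livers and 33.9% in DEN_KO against DEN_WT livers. Hepatocyte markers summed to between 2492591 and 3410319 in DEN_KO livers and between 4152351 and 6459518 in DEN_WT livers, and to between 2434527 and 3897457 in KO livers and between 3074649 and 3134337 in WT livers. Alb, the albumin gene, is the largest part of these sums and did not pass the test in DEN_WT against WT livers (0.90 ± 0.80, adjusted p = 0.43). Its values did not overlap, at 2081265 to 3386204 in DEN_WT and 1277821 to 1549787 in WT livers, as for 43.3% of all tested genes. The missing call therefore does not show that Alb was unchanged. Hnf4a, the hepatocyte transcription factor, did not pass either (-0.28 ± 0.22, adjusted p = 0.35). In DEN_WT against WT livers 2 of 11 rose, Ahsg, a serum glycoprotein, and Apoa1, an apolipoprotein whose call was lost when any 1 of 9 libraries was left out, and Apoa2, another apolipoprotein, fell (-1.41 ± 0.40, adjusted p = 0.017), a call lost with quantile normalization, with cyclic loess and without DEN_WT replicate 1, WT replicate 2 or WT replicate 3. In DEN_KO against DEN_WT livers Apoa2 and Ttr, the thyroxine carrier, were higher and Ahsg lower, and the call of Ahsg was lost without DEN_KO replicate 1, DEN_KO replicate 3 or DEN_WT replicate 3, with no filter, with quantile normalization and with the 2 groups alone.

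Stellate cell markers summed to between 5114 and 6346 in DEN_KO livers and between 7288 and 12425 in DEN_WT livers, and to between 5303 and 6610 in KO livers and between 5982 and 7087 in WT livers. Of 13 genes 5 were higher and 2 lower in DEN_WT against WT livers, and 1 higher and 6 lower in DEN_KO against DEN_WT livers. Over all tested genes 29.6% and 33.9% were called. The 2 lower in DEN_WT against WT livers were Dcn (-0.74, adjusted p = 0.041) and Hgf (-0.88, adjusted p = 0.04). Hgf was the 1 higher in DEN_KO against DEN_WT livers (0.90, adjusted p = 0.033). These calls were lost when any 1 of 7, 5 and 4 libraries was left out. Col1a1, a fibrillar collagen gene, read 44, 113 and 72 in DEN_KO livers, against 908, 230 and 199 in DEN_WT livers. In untreated livers it read 44, 26 and 29 in KO and 31, 28 and 17 in WT. Rgs5, a pericyte gene, read 782, 636 and 573 in DEN_KO livers, against 1656, 717 and 1029 in DEN_WT livers, and 1285, 1211 and 950 in KO livers, against 1018, 746 and 1061 in WT livers. It passed the test in none of the 5 comparisons. Rgs5 was named after its values were seen, so they are a description only, and the genes of this list did not all rank the groups alike. Acta2, the smooth muscle actin of activated stellate cells, rose by 2.92 ± 0.50 in DEN_WT against WT livers (adjusted p = 0.00085) and fell by -2.47 ± 0.50 in DEN_KO against DEN_WT livers (adjusted p = 0.0026).

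Endothelial markers summed to between 9672 and 11350 in DEN_KO livers and between 10567 and 11226 in DEN_WT livers, and to between 8538 and 9121 in KO livers and between 7717 and 9171 in WT livers. In DEN_WT against WT livers 7 of 12 were higher, Vwf, the clotting factor carrier, by 1.57 ± 0.31 (adjusted p = 0.0021), and in DEN_KO against DEN_WT livers Cdh5, Lyve1 and Emcn were lower. Over all tested genes 16.1% were higher in the first comparison and 17.4% lower in the second. Kupffer cell and macrophage markers summed to between 12161 and 17830 in DEN_KO livers and between 3919 and 14414 in DEN_WT livers, and to between 7958 and 8867 in KO livers and between 6863 and 7517 in WT livers. Of these 12 genes limma called C1qa and Clec4f higher in DEN_KO against DEN_WT livers, both lost without DEN_KO replicate 3, and 0 in DEN_WT against WT livers. The call of C1qa was also lost without DEN_WT replicate 2, the liver with the sum of 3919, and that of Clec4f with the 2 groups alone. No marker of these 4 cell types was at 0 in any library. Cholangiocyte markers summed to between 1582 and 2364 in DEN_KO livers and between 10503 and 17538 in DEN_WT livers, and to between 1168 and 1257 in KO livers and between 1294 and 1576 in WT livers, most of it in DEN_WT from Spp1, a matrix protein that other cells also make. Lymphocyte markers summed to between 253 and 270 in DEN_KO livers and between 155 and 363 in DEN_WT livers, and to between 132 and 154 in KO livers and between 175 and 261 in WT livers, with Ptprc the single one called (0.87 ± 0.31 in DEN_WT against WT, adjusted p = 0.046, a call lost when any 1 of 8 libraries was left out). Adipocyte and pancreas markers had Adipoq, Lep and Plin1 at 0 to 3 in every library, and their sum, 703 to 2232, was nearly all Cela1, an elastase gene that fell in DEN_WT against WT livers (-1.15 ± 0.29, adjusted p = 0.0086).

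The genes most like Igf1 over the 12 libraries, by Pearson's r of log2 values, were Mtss1 (0.962), Ttc39c (0.944), Arhgap42 (0.938), Ogfrl1 (0.934) and Serpina3g (0.930). Mtss1 read 4604, 1871 and 3507 in DEN_WT livers, against 7311, 7148 and 6801 in WT livers. Most like Igfbp1 were Anxa5 (0.980), Bex2 (0.975), Bex1 (0.965), Myo7b (0.965) and Hexa (0.964). Bex2, which read 155, 295 and 163 in DEN_WT livers, was at 0, 1 and 0 in WT livers. These values are descriptions, since the 12 libraries fall into 4 groups and the genes share those libraries.

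At the start sites, H3K4me3 regions lay within 1000 bases of the annotated start of 9 of the 10 genes in the DEN_KO list, where 72.4% of all tested genes had one, and of 8 in the DEN_WT list, where 70.5% did. Smyd3 regions lay there for 8 of the 10 in DEN_WT livers, where 64.2% of all tested genes had one. Each list stands for 1 group with no replicate lists, so none of these differences has a test. Coordinates in these lists are in build mm9 and cannot be set against those of the RefSeq windows.

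Igfbp3 was the gene with H3K4me3 in the DEN_KO list alone. Its region (mm9, chromosome 11, 7111069 to 7113444) is 2376 bases wide and begins 482 bases inside the gene, while the nearest region of the DEN_WT list is 11971 bases from the start. Of all tested genes 3.6% had a region in the DEN_KO list only and 1.72% in the DEN_WT list only. The RNA of Igfbp3 was lower, not higher, in DEN_KO than in DEN_WT livers. The nearest Smyd3 region, 7102400 to 7104439, lies 9487 bases from the Igfbp3 start and overlaps the end of Igfbp1, whose start is covered by another Smyd3 region (7097444 to 7099451).

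The width of the region at the start also differed between the lists for some genes. At Igfbp1 it was 2118 bases in the DEN_KO list and 4207 bases in the DEN_WT list, a ratio of 0.503 that 1.62% of 11329 genes with a region in both lists undercut. At Igf2r the widths were 1813 and 3595 bases in the DEN_KO and DEN_WT lists, a ratio of 0.504 undercut by 1.64%, although its RNA did not differ past the test between those groups (-0.08 ± 0.20, adjusted p = 0.78). At Ghr the region was 9040 bases in the DEN_KO list and 6354 bases in the DEN_WT list, a ratio of 1.42, and 79.3% of genes had a lower ratio. The log2 ratio had a median of 0.15 over all genes, with 5% of genes below -0.60 and 5% above 1.04. Igf1 had 5433 bases in the DEN_KO list and 6273 in the DEN_WT list, Igfbp4 8295 and 8250, Igfbp2 2618 and 2824, Igf1r 4156 and 3740, and Igfals 1989 and 2014. For these 5 genes the widths stayed within a ratio of 0.866 to 1.11.

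**Figure D4:**
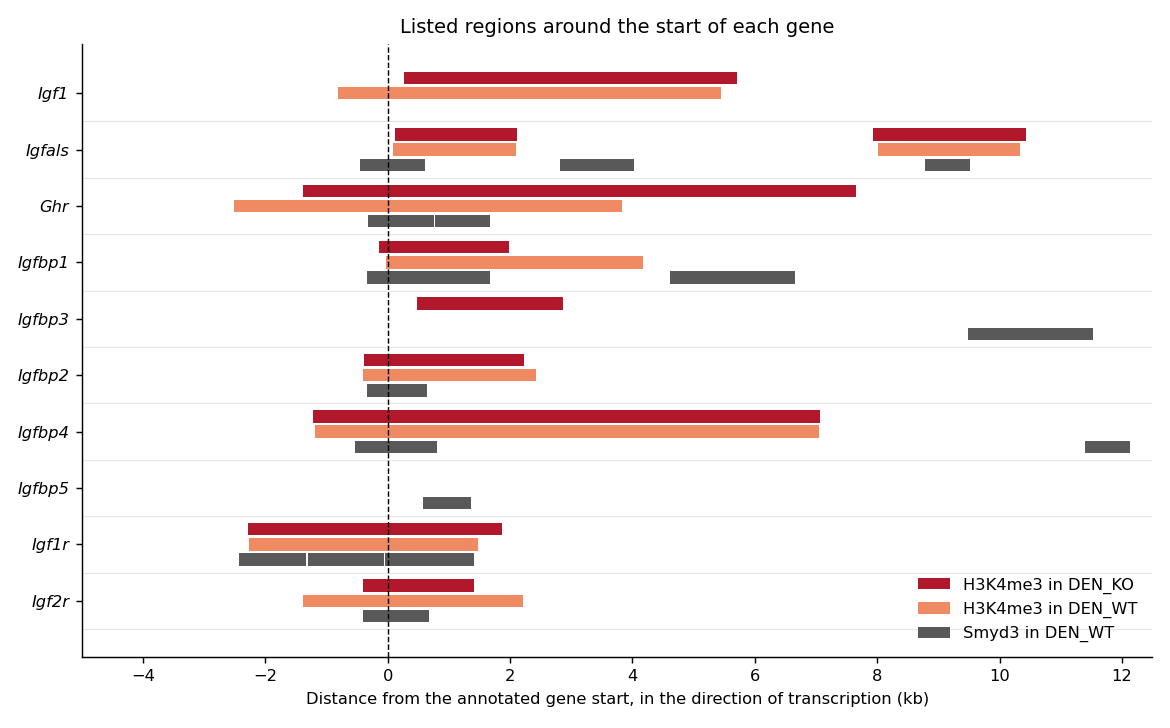
Listed regions around the annotated start of the 10 genes (rows), with distance from the start in kb in the direction of transcription (x axis). Red bars are H3K4me3 in DEN_KO, orange bars H3K4me3 in DEN_WT and grey bars Smyd3 in DEN_WT. Igfbp3 has a red bar and no orange one, Igfbp5 has neither, and Igf1 has no grey bar.

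**Figure D5:**
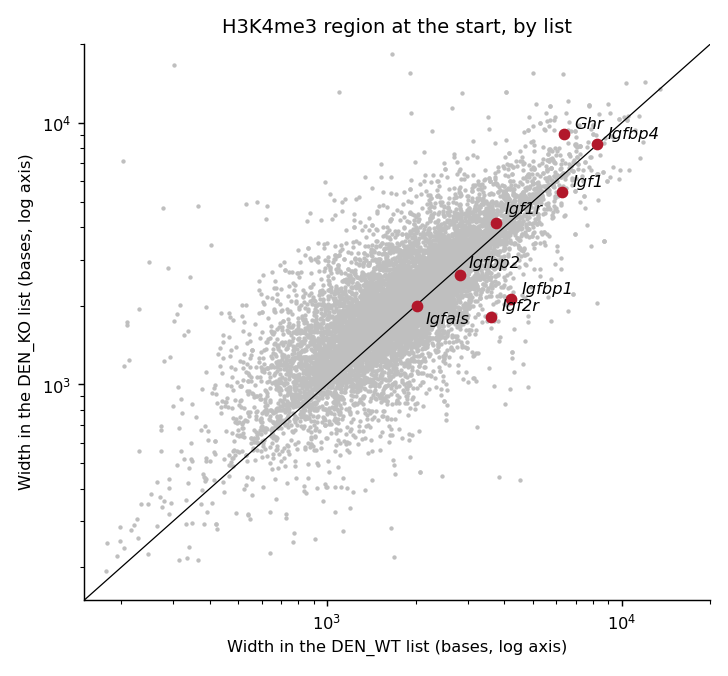
Width of the H3K4me3 region at the start in the DEN_KO list (y axis, bases, log axis) against that in the DEN_WT list (x axis, bases, log axis) for 11329 genes with a region in both (grey) and 8 of the 10 genes (red). The line marks equal widths. Igfbp1 and Igf2r lie below the line, at ratios of 0.503 and 0.504.

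Igf1, Igfbp3 and Igfbp5 each lacked a region in at least 1 list. Igf1 had H3K4me3 at its start in both lists but no Smyd3 region within 288223 bases. Igfbp5 had a Smyd3 region 573 bases from its start and no H3K4me3 region within 47956 bases in either list. Counting only regions that cover the start base itself left 6 of 10 genes in the DEN_KO H3K4me3 list, 7 in the DEN_WT list and 7 in the Smyd3 list, where 64.9%, 63.1% and 58.3% of all tested genes had one.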

How the data were processed

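Per the labels, mRNA from liver was made into Ion Total RNA-Seq libraries and sequenced on an Ion Proton. DESeq, Bowtie2, Cufflinks, TopHat2 (2.0.9) and cutadapt are listed with build mm9, per the submitters' processing notes, with no role for each. Not given in the sources used here are the peak caller, the gene annotation, the counting tool and whether it used strand. The deposited value is a score: the authors' normalized count per gene and library, rounded to whole numbers, and each library's own file held the values of the series table. Median-ratio factors recomputed from the values were 0.9986 to 1.004, so the values were taken as scaled already, with the underlying depth unknown. The deposited region lists hold a score of 0 in every line, with 1 list for 2 replicates. RNA polymerase II and input samples were not analysed here, and 0 value columns were unmapped. No 2 libraries of a group were alike within counting noise.

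A single fit of the 4 groups was made with limma 3.58.1 (R 4.3.3) on log2(value + 1), for the 16471 of 37583 genes that reached 10 in 3 or more libraries, with 8 residual degrees of freedom, a trend over expression and Benjamini-Hochberg adjustment. The scale understates changes of low genes. The procedure was also run on simulated data with the same spread setting for every gene. That differs from these libraries, so the run gives no error rate for them. An exact permutation test of 3 against 3 cannot go below p = 0.10. Replicates of RNA are separate mice as labelled. Among 18 pairs of libraries with the same number, deviations from group means correlated between -0.100 and 0.120, so numbers were not taken as pairs. The 10 genes, the lists and the rules were chosen with earlier results of these data known. Named were the 10 genes, Smyd3, Igf2, up to 4 genes a list with the largest change past the threshold in DEN_WT against WT or DEN_KO against DEN_WT, and the 5 genes most like Igf1 and Igfbp1. Other list genes, among them those of small counts, were named after their values were seen. Lists had 173 of 176 genes in the table. Alternatives were other pseudocounts (0.5, 5), filters (none, 50), scalings, no trend, the replicate number as a block, the compared groups alone, each library left out, and start windows of 500 and 2500 bases. Promoters came from RefSeq (GRCm38.p6), 10 of 10 genes matched, 14 windows.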

Additional observations from a re-analysis of the deposited data

Results flagged for a closer look

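The effect of DEN differed between knockout and wild type livers, by limma's interaction test, for 25 genes of the 10 and the lists, given here as the effect in KO minus the effect in WT in log2 ± SE. The lists had 173 genes in the table, and the same test called 16.6% of all tested genes. The count of 25 is therefore a listing, not an excess over other genes. Of the IGF genes these were Igfbp1 (-4.12 ± 1.15, adjusted p = 0.028), with DEN effects of 4.21 in KO and 8.32 in WT, Igfbp3 (-2.42 ± 0.52, adjusted p = 0.0093), with -0.77 and 1.64, and Ghr (1.15 ± 0.31, adjusted p = 0.024), with -0.48 and -1.62. Igfbp3 is the one of them whose DEN effect had opposite signs, and its effect in KO did not pass the test (adjusted p = 0.18).

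In the pathway lists, the 7 negative differences were those of Lepr (-2.82 ± 0.50, adjusted p = 0.0035), Ptpn1 (-0.67 ± 0.21, adjusted p = 0.049), Insr (-1.0 ± 0.20, adjusted p = 0.0068), Stc1 (-3.59 ± 0.76, adjusted p = 0.0085), M6pr (-0.83 ± 0.22, adjusted p = 0.021), Trib3 (-2.98 ± 0.49, adjusted p = 0.0027) and Cyp2a4 (-3.42 ± 0.68, adjusted p = 0.0062). The call of Ptpn1 was lost when any 1 of 10 libraries was left out and that of M6pr when any 1 of 3 was. The 6 positive ones were those of Cyp2d9 (2.23 ± 0.45, adjusted p = 0.0065), Cyp4a12a (2.49 ± 0.74, adjusted p = 0.036), Mup3 (1.83 ± 0.59, adjusted p = 0.05), Ugt2b38 (1.39 ± 0.20, adjusted p = 0.0015), Susd4 (2.18 ± 0.57, adjusted p = 0.022) and Cyp3a44 (1.63 ± 0.45, adjusted p = 0.027). Of these, Cyp4a12a was lost when any 1 of 7 libraries was left out and under 4 other settings, Mup3 when any 1 of 9 was and under 5, and Cyp3a44 when any 1 of 5 was and without the trend. Susd4 was lost without DEN_KO replicate 3.

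Among cell type markers, the difference was positive for the hepatocyte genes Apoa2 (2.56 ± 0.57, adjusted p = 0.01) and Ttr (1.75 ± 0.45, adjusted p = 0.019), the second lost without KO replicate 1 and with cyclic loess. It was negative for the stellate genes Col1a1 (-2.64 ± 0.73, adjusted p = 0.026), Col1a2 (-2.20 ± 0.56, adjusted p = 0.019), Col3a1 (-2.13 ± 0.49, adjusted p = 0.012) and Pdgfrb (-1.33 ± 0.39, adjusted p = 0.034), with Col1a1 lost when any 1 of 4 libraries was left out and Pdgfrb when any 1 of 6 was. It was also negative for the endothelial genes Emcn (-1.36 ± 0.35, adjusted p = 0.02) and Cdh5 (-1.05 ± 0.23, adjusted p = 0.01), and for Spp1 (-2.76 ± 0.38, adjusted p = 0.0011), counted with the cholangiocyte markers.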

How the results depend on the processing

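Of 1035 values of the 10 genes under the alternatives, 993 kept their side of the threshold, 33 lost a call and 9 gained one. No called value changed sign, but 29 uncalled ones did, 12 of them with quantile normalization or cyclic loess, to at most 0.74 in size. Of 13 calls 8 held in every alternative run, among them all 5 in DEN_WT against WT. Between DEN_KO and DEN_WT livers the 4 calls became 2 with quantile normalization and 2 with cyclic loess, and 1 to 4 with 1 library left out (1 without DEN_KO replicate 3 and 1 without DEN_WT replicate 2). With 1 library left out, the 0 calls in KO against WT became 0 to 1, the 1 in DEN_KO against KO 1 to 2 (KO replicate 3 in both), and the 3 in the interaction 1 to 3 (1 without DEN_KO replicate 3, DEN_WT replicate 2 or KO replicate 1). Over all genes, the 191 calls in KO against WT became 104 without the trend, 115 with the 2 groups alone and 62 to 555 with 1 library left out (62 without KO replicate 1, 63 without KO replicate 2, 64 without WT replicate 2, 555 without KO replicate 3). The 2460 in DEN_KO against KO became 1119 to 2661 (1119, 1316, 1322 and 1604 without DEN_KO replicate 2, DEN_KO replicate 3, KO replicate 1 and KO replicate 2), and the 2727 in the interaction 1751 (without DEN_KO replicate 3) to 3075. Igf2 in DEN_KO against DEN_WT, 0.26 with all libraries, ran from -1.67 (without DEN_KO replicate 2, reversed) to 1.26 with 1 left out. Quantile normalization moved the median of all genes in DEN_WT against WT to -0.11, against -0.02.

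Replicate numbers were not taken as pairs, although correlations over all tested genes cannot exclude a batch that acts on some of them. With a replicate block, DEN_KO against DEN_WT had 3 calls among the 10 genes, Igfals being the one lost (0.78, adjusted p = 0.053), and no other call of the 10 changed. A stricter region threshold was not possible, since every region has the same score, and starts from RefSeq were not run because its build is not that of the files. Values are rounded and scaled, so the precision of low genes such as Igf1r is limited by depth that is unknown.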
